A study of Mus musculus with 6 samples.

Results

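Genes of the osteoblast and of matrix mineralisation were followed in C3H10T1/2 cells, a line of mouse mesenchymal cells able to become bone, cartilage, fat or muscle cells in culture. The genes were taken by name: the transcription factors Runx1, Runx2 and Sp7, the phosphatase Alpl, the acidic matrix proteins Ibsp and Spp1, the endopeptidase Phex, and Ank and Enpp1, which set extracellular pyrophosphate. Of these 9 genes, 6 had a probe set under their symbol in the platform annotation used, with 13 probe sets among 45101 on the array, while Runx2, Spp1 and Enpp1 are not analysed here. The treated group was given 50 ng/ml BMP4, a secreted bone morphogenetic protein, during proliferation, and the control group had no treatment. Total RNA of both groups was taken at postconfluence, and each group held 3 samples on 1 single-colour array each. The labels give no genetic change in either group and do not tell whether samples of a group came from different cultures; p-values here rest on the spread among samples, and that spread may be technical. The series asked which genes BMP4 regulates as these cells commit to the adipocyte lineage.

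Osteoblasts deposit a collagen matrix and then mineralise it. Runx2 and Sp7 are the transcription factors that commit cells to this fate, and bone morphogenetic proteins are known to induce it in mesenchymal cells. Pyrophosphate blocks the growth of mineral crystals: Enpp1 makes it outside the cell, the membrane protein Ank raises its level there, and the phosphatase Alpl breaks it down to phosphate. Ibsp and Spp1 are acidic matrix proteins that bind mineral and cell-surface integrins. Phex is a membrane endopeptidase whose loss causes a rickets with phosphate wasting.

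Phex and Ank were the 2 genes whose change passed the test, and they moved in opposite directions, so the sequences around their start sites are shown. Each runs 5′ to 3′ on the gene's strand, from 250 bases before to 50 bases after the annotated start, from RefSeq on GRCm38.p6. The Phex window lies at chrX:157415237-157415536 on the minus strand and the Ank window at chr15:27466427-27466726 on the plus strand. Capitals mark GGCGCC, a GC-rich motif known to bind Smad1 and Smad5, or TGTGGT, the core of the RUNX motif, on either strand; the letters were searched exactly and neither motif overlapped the other.
Phex: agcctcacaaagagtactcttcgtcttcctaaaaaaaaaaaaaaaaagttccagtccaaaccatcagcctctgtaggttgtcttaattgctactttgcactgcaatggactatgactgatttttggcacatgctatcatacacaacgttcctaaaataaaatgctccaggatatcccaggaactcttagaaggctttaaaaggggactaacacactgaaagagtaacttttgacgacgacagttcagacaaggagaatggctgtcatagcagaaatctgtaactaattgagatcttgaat
Ank: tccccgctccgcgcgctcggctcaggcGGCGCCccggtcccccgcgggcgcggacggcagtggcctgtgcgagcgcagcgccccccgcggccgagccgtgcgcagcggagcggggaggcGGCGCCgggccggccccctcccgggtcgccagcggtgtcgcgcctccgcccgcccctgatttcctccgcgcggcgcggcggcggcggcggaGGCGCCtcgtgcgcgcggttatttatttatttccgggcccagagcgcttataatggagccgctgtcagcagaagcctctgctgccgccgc
The Phex window held 0 matches to either motif, and the Ank window held 3 of GGCGCC and 0 of TGTGGT. Windows existed for 8 of the 9 genes, 11 in all, and 3 of the 11 held GGCGCC. These were the Ank window and 1 each of Alpl and Runx1, whose changes did not pass the test. GGCGCC was thus not particular to a gene that changed. TGTGGT on either strand was in 4 of the 11. Among 32851 RefSeq start-site windows of 300 bases, 11.9% held GGCGCC and 16.8% held TGTGGT or its reverse complement ACCACA. GC content was 38.7% in the Phex window and 78% in the Ank window, against a median of 52.7% over all windows. A match is a stretch of letters and does not show binding, and a window without one says nothing of the factor.

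BMP4-treated cells had less Phex transcript and slightly more Ank transcript than control cells, while Runx1, Sp7, Alpl and Ibsp did not pass it on any probe set tested. Signals are the deposited linear intensities, and changes are differences in log2(signal + 16) tested with limma. That test used the 27022 probe sets whose mean exceeded a signal of 23.5, and a change was called at a Benjamini-Hochberg adjusted p under 0.05. Of the 13 probe sets, 10 passed that filter and 3 did not, namely 2 of Runx1 and 1 of Ibsp. Among those 10, limma called 1 higher and 2 lower, against 9.12% called over all probe sets tested (4.2% higher and 4.91% lower). That near balance depends on the scaling: 1136 probe sets were higher and 1328 lower as deposited, against 632 higher and 1890 lower with each array centred on its median. Counted with the brightest kept probe set per gene, 1 of 6 genes was higher and 1 lower, against 10.7% of 12966 genes called (5.03% higher and 5.66% lower). The median log2 change of the 6 genes was 0.08, and that of all genes tested was 0.03. Arrays of the groups did not overlap at 5 of the 10 probe sets, against 28.2% of all probe sets tested, and by gene at 3 of 6, against 30.7%. Counts this small cannot set the genes apart from the background.

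**Figure D1:**
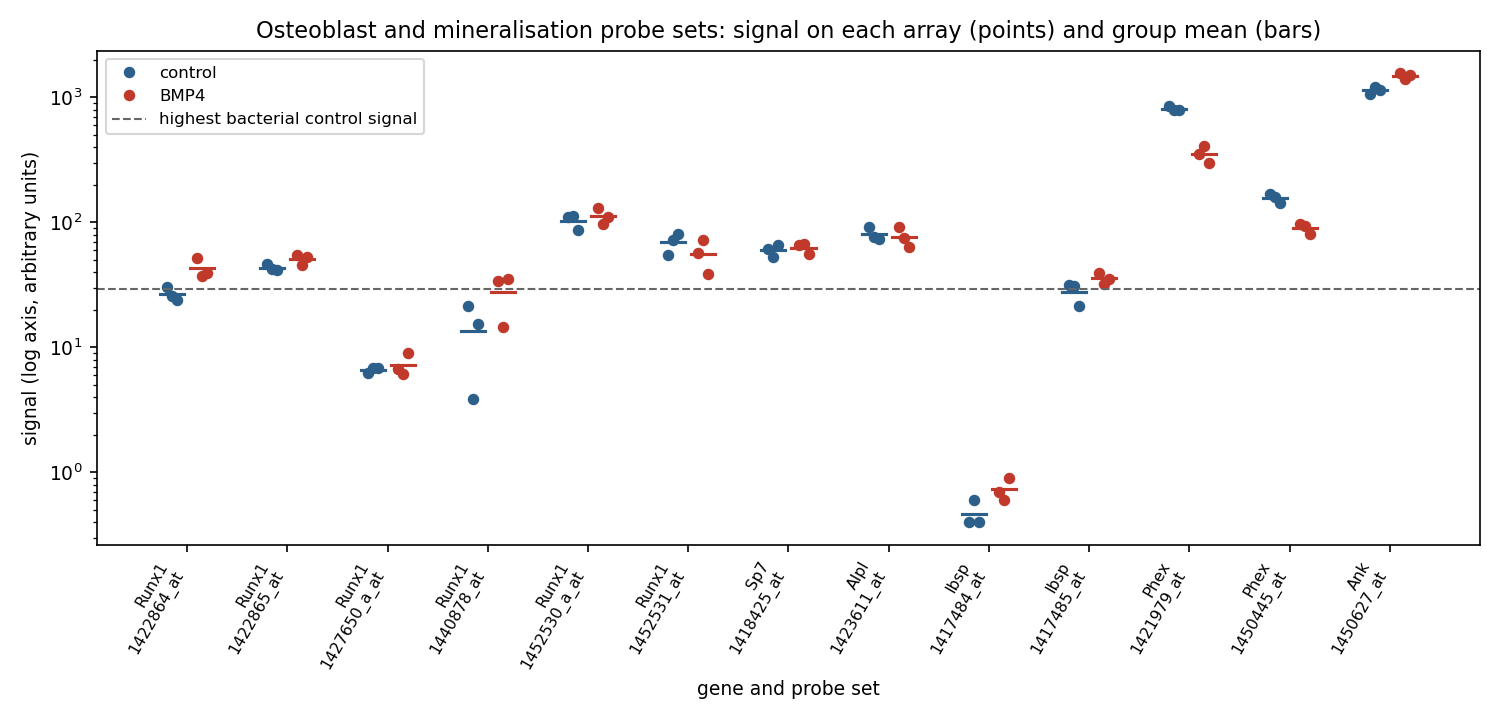
Signal (log axis, arbitrary units) of each of the 13 probe sets, with 1 point per array, bars at the group means of 3 arrays, and a dashed line at 29.1, the highest signal of any bacterial control probe set. Both Phex probe sets lie lower on every BMP4 array, Ank lies higher, and the dimmer Ibsp and Runx1 probe sets sit near or below the line.

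Background on these arrays was judged from probe sets for bacterial transcripts, whose highest signal on any array was 29.1. Array medians were 37.6 to 42.6 with BMP4 and 35.2 to 37.3 without it, and the 2% trimmed mean of the deposited values was 150 on each array. All 8 mesenchymal markers, among them the collagen gene Col1a1, lay above 29.1 on every array. Of 6 osteoblast markers with a probe set, 4 did so, and Dmp1, an osteocyte matrix protein, lay at or below that level on all arrays. That list is no separate measure of the osteoblast. Sp7, Alpl, Ibsp and Phex in it are genes followed here, Col1a1 is also a mesenchymal marker, and the 1 marker called was Phex. Summed adipocyte marker signals were 478 to 508 in control cells and 1133 to 1244 with BMP4. Of 7 markers 4 were called higher, against 5.03% of all genes tested, and Cidec and Lep lay at or below 29.1 on every array. Adipoq, 1 of the 4, was under 29.1 on every control array and passed the filter only through its BMP4 arrays. Its place in that count is no support. Summed chondrocyte marker signals were 648 to 725 and 1680 to 1898, with 3 of 8 higher. The 3 were Sox9 (mean 398 without and 1003 with BMP4), Col2a1 (119 and 494) and Col9a1 (55.4 and 112). Acan was not called (log2 -0.04, limma adjusted p = 0.934), and Matn1, Col10a1 and Hapln1 lay at or below 29.1 on every array. Macrophage markers summed to 443 to 477 without and 473 to 624 with BMP4, 4 of 8 lay above 29.1 on every array, and Ptprc, the leukocyte surface phosphatase, was under 29.1 on every array. Summed skeletal muscle (191 to 238 without and 191 to 268 with BMP4), endothelial (233 to 258 and 145 to 244) and epithelial (499 to 589 and 358 to 609) markers overlapped between groups as sums. Of the 5 endothelial markers 1 was called lower: Tek, a receptor for angiopoietins, went from 114 ± 15.4 to 64.7 ± 11.6 (SD, n = 3), with groups that did not overlap (log2 -0.69, limma adjusted p = 0.0166), while Pecam1 was under 29.1 on every array. The part of these other lineages in the changes of Phex and Ank was not tested.

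Phex fell on both of its probe sets. The brighter one, 1421979_at, read 851, 789 and 788 on the control arrays and 353, 411 and 301 on the BMP4 arrays. Every control array was well above every BMP4 array. Group means were 809 ± 35.9 and 355 ± 55.3 (SD, n = 3), a log2 change of -1.16 ± 0.10 (SE; 95% interval -1.38 to -0.94; limma adjusted p = 3.68e-05), or 2.24-fold lower. This fall ranked 72 in size among the 12966 genes. In cells measured in bulk, fewer cells that make a transcript and less transcript per cell cannot be told apart.

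The dimmer Phex probe set, 1450445_at, read 167, 161 and 143 without BMP4 and 97.9, 93.6 and 80.8 with it. The groups again did not overlap, and the change was -0.70 ± 0.12 (SE; 95% interval -0.96 to -0.44; limma adjusted p = 0.00339). Both probe sets are annotated to the same cDNA record, so they are not independent measures of the gene. Their sizes differed, and the dimmer one is more compressed by the added 16: with 1 added instead, the changes were -1.20 and -0.79.

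Ank, the membrane protein that raises extracellular pyrophosphate, had 1 probe set, 1450627_at. It read 1073, 1221 and 1156 in control cells and 1562, 1409 and 1510 in BMP4-treated cells. The lowest BMP4 array was above the highest control array. Means were 1150 ± 74.2 and 1494 ± 77.6 (SD, n = 3), a log2 change of 0.37 ± 0.07 (SE; 95% interval 0.21 to 0.53; limma adjusted p = 0.00848). This rise ranked 1154 in size among 12966 genes. The call was lost with each array centred on its median (log2 0.28, adjusted p = 0.0738) and without the intensity trend in the variance (0.37, adjusted p = 0.0725). Array medians themselves were 0.09 higher on the log2 scale in the BMP4 group.

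**Figure D2:**
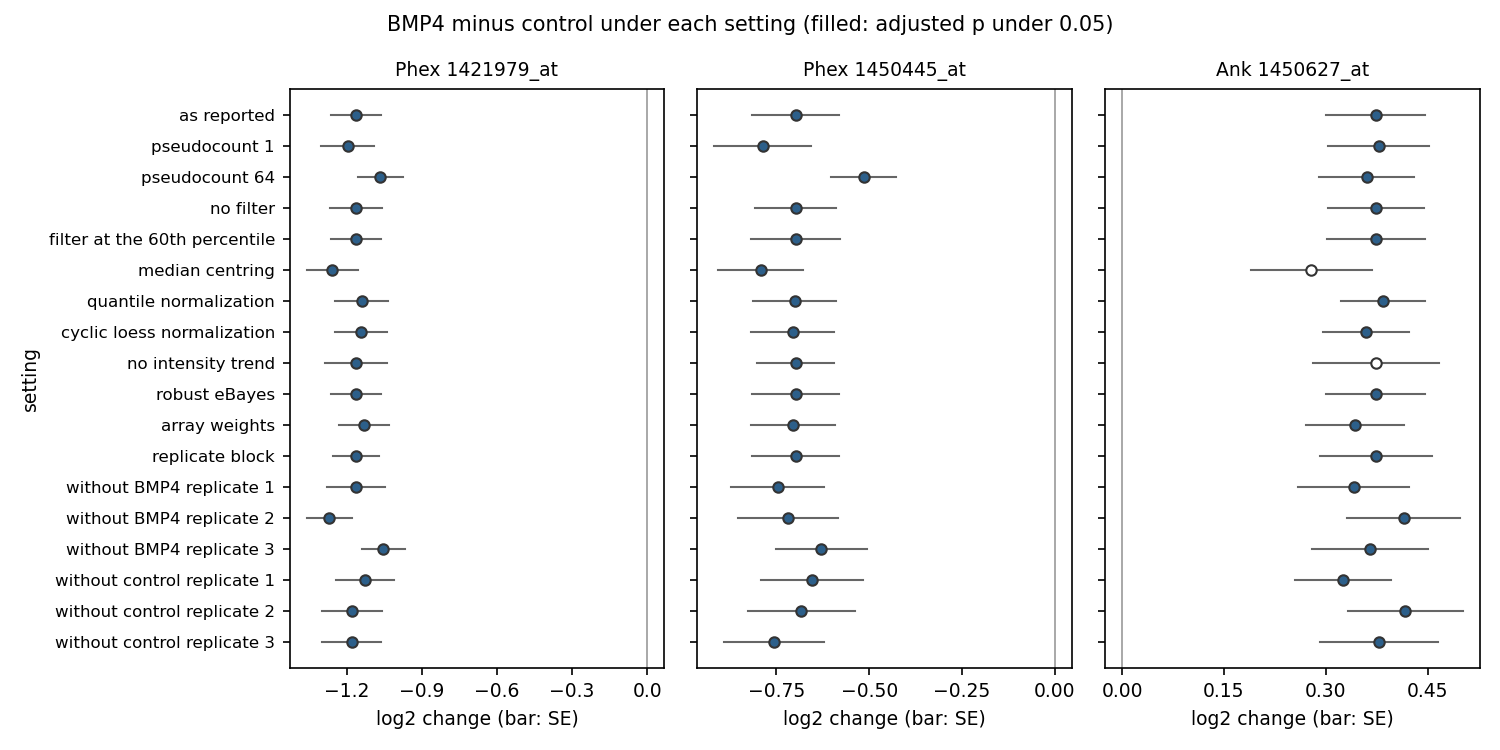
Log2 change of the 2 Phex probe sets and the Ank probe set, BMP4 minus control, as reported and under 17 other settings, with bars of 1 SE from limma. Points are filled where the adjusted p was under 0.05: both Phex panels are filled throughout, and Ank is open with median centring and without the intensity trend.

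Alpl, tissue-nonspecific alkaline phosphatase and the usual early marker of osteoblast differentiation, read 91.9, 76.4 and 73.5 on the control arrays and 91.3, 75.6 and 64.1 on the BMP4 arrays. The groups overlapped almost wholly. The log2 change was -0.06 ± 0.15 (SE; 95% interval -0.40 to 0.28; limma adjusted p = 0.863), and its sign turned without BMP4 replicate 3 or control replicate 1. All 6 arrays were above the bacterial control level, but the deposited values carry no detection calls. A change in this probe set's signal of the size of the brighter Phex fall lies outside that interval in either direction. How much of the signal comes from the Alpl transcript was not tested.

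Sp7, the zinc finger factor also called osterix, read 61.1, 52.9 and 65.8 without BMP4 and 65.8, 66.6 and 55.7 with it. These ranges overlapped, and the log2 change was 0.05 ± 0.15 (SE; 95% interval -0.28 to 0.38; limma adjusted p = 0.881). Its sign turned with median centring, quantile normalization and cyclic loess and without control replicate 2. The signals were above the bacterial controls on every array, but the table used carries no detection calls.

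Ibsp, bone sialoprotein, an acidic protein of mineralising matrix, was at or near background. Its brighter probe set, 1417485_at, read 31.3, 30.8 and 21.6 without and 39.5, 32.3 and 35.2 with BMP4. Every BMP4 array was higher, though by little at the nearest pair, and 1 control array lay under 29.1. The log2 change was 0.24 ± 0.19 (SE; 95% interval -0.17 to 0.65; limma adjusted p = 0.49). The other probe set, 1417484_at, lay between 0.4 and 0.9 on all 6 arrays and was not tested.

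Runx1, a Runt-domain factor known from blood formation and also made in mesenchymal and cartilage progenitors, had 6 probe sets. The test covered 4 of them, and none passed it. The brightest, 1452530_a_at, read 111, 112 and 87.3 in control cells and 131, 97.0 and 111 in BMP4-treated cells. The ranges overlapped, with a log2 change of 0.11 ± 0.14 (SE; 95% interval -0.20 to 0.42; limma adjusted p = 0.697). Probe set 1422864_at read 30.3, 26.0 and 23.8 against 52.4, 37.6 and 39.4, and its groups did not overlap. Its log2 change of 0.46 ± 0.18 (SE; 95% interval 0.06 to 0.87) had an unadjusted p of 0.0287 and a limma adjusted p of 0.161, and 2 of its control arrays were below the bacterial control level. Its neighbour 1422865_at, annotated to the same transcript record, gave 0.18 (95% interval -0.17 to 0.52, limma adjusted p = 0.559).

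The remaining Runx1 probe sets gave no common direction. Probe set 1452531_at read 54.7, 72.2 and 80.5 without and 57.4, 71.8 and 38.8 with BMP4, a log2 change of -0.26 (95% interval -0.70 to 0.19, limma adjusted p = 0.496). Probe set 1440878_at, just under the filter, ranged from 3.9 to 21.5 in control cells and from 14.5 to 35.1 with BMP4, so the groups overlapped. Probe set 1427650_a_at stayed between 6.1 and 9.0 on all arrays, below background. In a fit without the filter these last 2 gave 0.58 (limma adjusted p = 0.41) and 0.04 (adjusted p = 0.917).

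**Figure D3:**
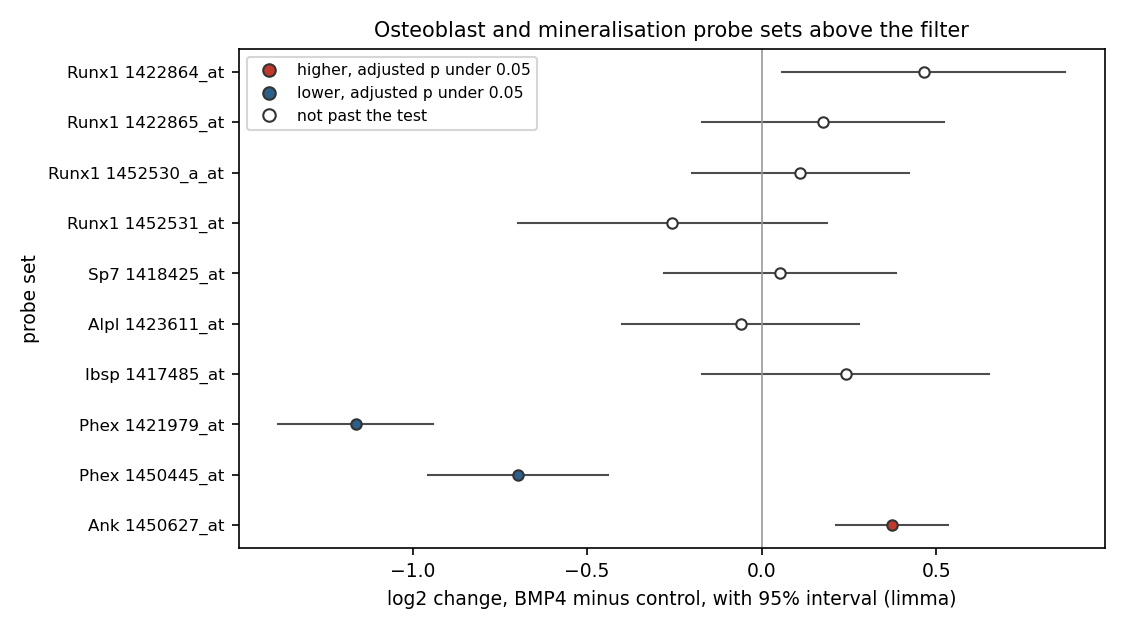
Log2 change, BMP4 minus control, of the 10 probe sets above the filter, with 95% intervals from limma on 3 arrays per group. The 2 Phex probe sets and Ank are filled (adjusted p under 0.05), and the intervals of Sp7, Alpl, Ibsp and 3 of the 4 Runx1 probe sets include 0.

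Genes that act beside these were taken from 4 lists of 59 genes in all, of which 53 had a probe set and 39 passed the filter. Of these 39, limma called 3 higher and 5 lower, with a median log2 change of 0.03, against 0.03 over all genes tested. That is 20.5% called, against 10.7% of all genes tested (5.03% higher and 5.66% lower). The counts per list given below rest on 7 to 15 genes each and are to be read beside the same shares. Counts this small cannot set the lists apart from the background. One of the 3 higher genes, Itgb3, passed the filter only through its BMP4 arrays, so its place in that count is no support. The number called higher was 1 without BMP4 replicate 2 and 0 without BMP4 replicate 3, where 6 were higher at an unadjusted p under 0.05 (limma). The number called lower was 3 without BMP4 replicate 1, BMP4 replicate 3, control replicate 2 or control replicate 3. Without the filter on low signals the calls of Mgp, Tnfrsf11b, Twist1 and Cd44 described next were lost (limma adjusted p from 0.063 to 0.107). The same 4 calls (0.106 to 0.143) and that of Itgb5 (0.0659) were lost without the intensity trend. Median centring ended the calls of Tnfrsf11b (adjusted p = 0.0991) and Cd44 (0.0864), and quantile normalization (0.0593) and cyclic loess (0.0533) that of Twist1.

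Of 9 tested genes of pyrophosphate and phosphate handling, limma called 1 lower and 0 higher, with 2 higher and 2 lower at an unadjusted p under 0.05. Mgp, matrix Gla protein, an inhibitor of soft-tissue calcification, read 4305, 5130 and 5351 without and 3758, 4033 and 3451 with BMP4. Each BMP4 array was below each control array, and the log2 change was -0.39 ± 0.10 (SE, limma adjusted p = 0.0351). That call was lost without any 1 of the BMP4 arrays, control replicate 2 or control replicate 3 (adjusted p from 0.0531 to 0.132). The pyrophosphatase Ppa1 gave 0.25 (limma adjusted p = 0.0854) and the phosphate transporter Slc20a1 gave 0.30 (adjusted p = 0.102). The ectonucleotidase Enpp3 gave -0.31 (adjusted p = 0.184). These uncalled genes are named after their values were seen.

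Of 8 tested genes of bone matrix and osteocytes, limma called 2 lower and 0 higher, and the same numbers held at an unadjusted p under 0.05. Omd, osteomodulin, a small proteoglycan of bone, read 356, 327 and 332 without and 199, 206 and 232 with BMP4. The groups lay far apart for their spread, and the change was -0.64 ± 0.08 (SE, limma adjusted p = 0.000742). Vdr, the receptor for active vitamin D, read 244, 268 and 239 against 185, 129 and 155, a change of -0.64 ± 0.12 (SE, limma adjusted p = 0.00643). A further Vdr probe set gave -0.60 (limma adjusted p = 0.00213), but it is annotated to the same sequence record and is not an independent measure. The main bone collagen genes Col1a1 and Col1a2, named after their values were seen, gave 0.13 (95% interval up to 0.41) and 0.19 (up to 0.46), with adjusted p of 0.579 and 0.401. Dmp1, Mepe, Dspp and Sost, genes of osteocytes and mineralised tissue, were below the filter.

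Of 15 tested transcription and signalling genes of the osteoblast, 1 was called higher and 1 lower, with 2 higher and 2 lower at an unadjusted p under 0.05 (limma). Tnfrsf11b, osteoprotegerin, the decoy receptor that restrains osteoclast formation, read 150, 115 and 107 without and 170, 167 and 218 with BMP4. The groups did not overlap, and the change was 0.52 ± 0.14 (SE, limma adjusted p = 0.0423). A dimmer probe set, annotated to the same sequence record and so not independent, gave 0.66 (limma adjusted p = 0.0354). The call on the brighter probe set was lost without any 1 of the BMP4 arrays, control replicate 2 or control replicate 3 (adjusted p from 0.0558 to 0.136). Twist1, a helix-loop-helix factor that restrains Runx2, read 371, 349 and 312 against 189, 284 and 260, a change of -0.48 ± 0.13 (SE, limma adjusted p = 0.044). Its call was lost without any array other than BMP4 replicate 2 (adjusted p from 0.0569 to 0.155). Cbfb, the partner subunit of the Runx factors, gave 0.18 (limma adjusted p = 0.246). The homeobox factors Dlx5 and Msx2 gave 0.20 (adjusted p = 0.362) and 0.48 (adjusted p = 0.167). In the other direction, Twist2 gave -0.29 (adjusted p = 0.1175), Runx3 gave -0.59 (adjusted p = 0.225) and Hdac4 gave -0.22 (adjusted p = 0.245). These uncalled genes are named after their values were seen.

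Of 7 tested receptor genes for osteopontin and bone sialoprotein, 2 were called higher and 1 lower, with 3 higher and 1 lower at an unadjusted p under 0.05 (limma). Itgb3, the beta subunit that pairs with Itgav, read 5.5, 14.8 and 8.3 in control cells, all below the bacterial control level, and 48.6, 45.7 and 60.6 with BMP4. All BMP4 arrays were above that level, and Itgb3 passed the filter only through them. Set against a control signal of 29.1 on the log2(signal + 16) scale, it was at least 1.49-fold higher, and in the fit without the filter it was called as well (limma adjusted p = 0.00876). Its mean fell below the filter, so that it was not tested, without any 1 of the BMP4 arrays, with 1 added in place of 16, and with a filter at the 60th percentile. In the last 2 settings 1 gene of this list was called higher. Itgav, the alpha subunit that pairs with both Itgb3 and Itgb5, gave 0.03 (95% interval up to 0.19, limma adjusted p = 0.836). Itga5, another integrin alpha subunit, gave 0.28 (limma adjusted p = 0.0783). These uncalled genes are named after their values were seen.

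Cd44, a receptor for hyaluronan and osteopontin, read 430, 565 and 549 without and 666, 700 and 883 with BMP4. The groups did not overlap, and the change was 0.53 ± 0.12 (SE, limma adjusted p = 0.0202), a call lost without BMP4 replicate 3 (adjusted p = 0.0594) or control replicate 1 (adjusted p = 0.0714). Another 2 Cd44 probe sets gave 0.69 (adjusted p = 0.00115) and 0.57 (adjusted p = 0.00644). Itgb5 read 1223, 1155 and 1174 against 921, 943 and 948, a change of -0.33 ± 0.06 (SE, limma adjusted p = 0.0063). Its other 3 probe sets gave -0.41, -0.66 and -0.43, all past the test, though the first 2 of these share a transcript record.

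**Figure D4:**
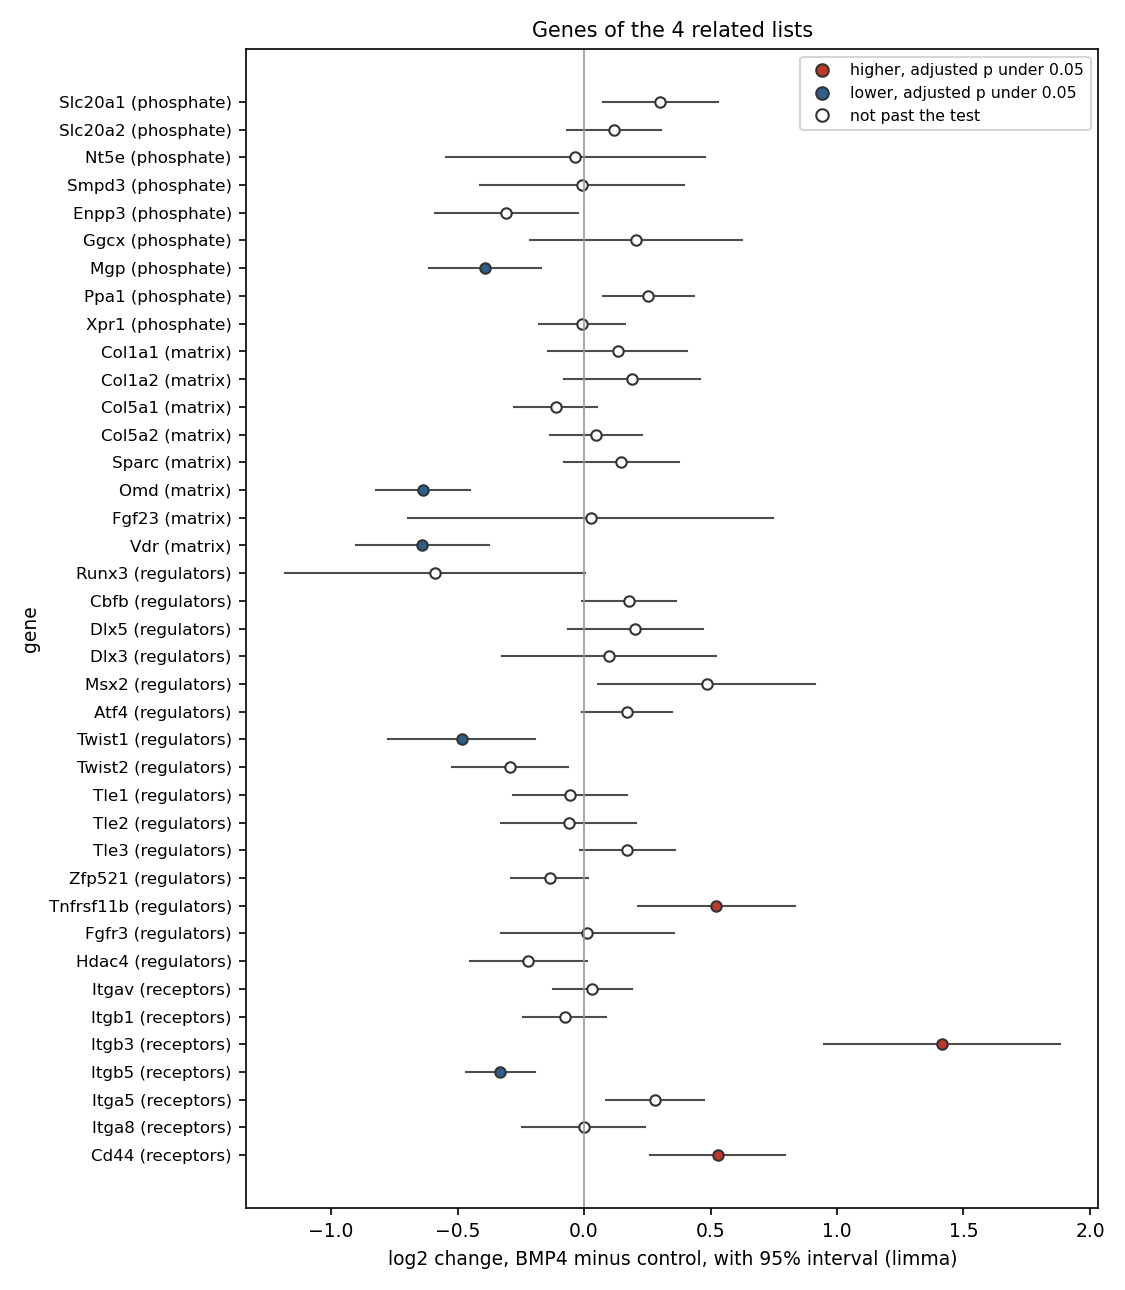
Log2 change, BMP4 minus control, with 95% intervals from limma (3 arrays per group), of the 39 genes of the 4 related lists above the filter, labelled by list. Filled points passed the test: Itgb3, Cd44 and Tnfrsf11b higher, and Mgp, Omd, Vdr, Twist1 and Itgb5 lower.

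Genes with the pattern most like that of Phex and Ank over the 6 arrays were found by Pearson correlation of log2 values among 12966 genes. The arrays fall into 2 groups, so these values mostly reflect the difference between them. For Phex the 3 closest were Adamts16, a secreted metalloproteinase (r = 0.9996), Dkk2, a secreted modulator of Wnt receptors (r = 0.9992), and the zinc finger gene Zfp827 (r = 0.9972). Adamts16 went from a mean signal of 133 to 36.1 and Dkk2 from 404 to 157, log2 changes of -1.53 and -1.29 (limma adjusted p = 0.000155 and 3.905e-05). Zfp827 changed little, from 184 to 155 (adjusted p = 0.152). For Ank the 3 closest were Rasgrf2, an exchange factor for small GTPases (r = 0.9972), the netrin receptor Unc5c (r = 0.9967) and the co-chaperone Dnajc9 (r = 0.9962). Their log2 changes were 0.45 (limma adjusted p = 0.106), 0.52 (adjusted p = 0.0032) and 0.48 (adjusted p = 0.00402).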

How the data were processed

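Biotin-labelled total RNA of 3 BMP4-treated and 3 control samples was measured on 6 single-colour arrays. The deposited values are linear signal intensities that the authors made with GCOS 1.3, per the submitters' processing notes. How they were scaled or background-corrected is not given in the sources used here. Because the 2% trimmed mean was already 150 on all arrays, no further scaling was applied; a shift common to most transcripts would be missed. Groups were taken from the sample titles. After 64 control probe sets were left out, log2(signal + 16) was taken, probe sets above the 40th percentile of mean log2 value were kept, and groups were compared with limma 3.58.1 in R 4.3.3 (lmFit, eBayes with an intensity trend, two-sided, Benjamini-Hochberg adjustment over 27022 probe sets). The procedure was run on simulated data in which spreads were assigned to probe sets at random. That run cannot test the intensity trend in the variance, on which the Ank call depends. The number of arrays limits precision.

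The genes and lists were chosen with earlier results of these data known. The rule for names takes all probe sets of the genes studied, up to 4 called genes of each related list by size of change (or, with no call, the gene of smallest p), and 3 genes most correlated with each called gene. In the platform annotation 34958 probe sets had 1 symbol, 932 had several and 9211 were unnamed; only those with 1 symbol were used, and all 6 genes matched RefSeq by gene ID and symbol. Pseudocounts, filters, normalization, the variance model, array weights, a replicate block and leaving out each array were tried as alternatives.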

Additional observations from a re-analysis of the deposited data

How the results depend on the processing

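Across the 17 other settings the brighter Phex probe set changed by -1.27 to -1.05 and the dimmer by -0.79 to -0.51 on the log2 scale, both past the test each time, while Ank stayed between 0.28 and 0.42 and was not called in 2 settings. With median centring and without the intensity trend 0 of these probe sets and 0 genes were called higher (limma; 1 and 2 probe sets at an unadjusted p under 0.05). Over all probe sets, 632 were higher and 1890 lower with median centring, and 659 were higher and 763 lower without the trend. Among the related lists 1 gene was higher without the filter, without the trend and with median centring, and 3 were lower without the filter, 2 without the trend. Leaving out 1 array at a time gave 768 to 945 higher and 845 to 1063 lower probe sets; of the osteoblast and mineralisation probe sets 1 was higher and 2 lower each time, and in the related lists 0 to 2 genes were higher and 3 to 5 lower. The cause of these differences was not tested.

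The Sp7 value changed sign with median centring (-0.042), quantile normalization (-0.017) and cyclic loess (-0.0025) and without control replicate 2 (-0.016), and that of Alpl without BMP4 replicate 3 (0.042) or control replicate 1 (0.022). Leaving out 1 array at a time, Sp7 ranged from -0.016 to 0.12 and Alpl from -0.17 to 0.042. Same-numbered samples of the groups did not deviate together (correlations 0.01, -0.003 and -0.072), so the titles' numbers were not taken as pairs. With a replicate block, 2 genes of the related lists were called higher and 3 lower, since Mgp (adjusted p = 0.0585), Twist1 (0.0574) and Tnfrsf11b (0.0676) were not called, and the calls of Phex and Ank held (Ank adjusted p = 0.0256). Low signal limits Ibsp and the dim Runx1 probe sets, which lie near the bacterial control level.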
